A study of Mus musculus with 6 samples.

Results

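The genes described here are 9 mouse genes of the p53 pathway and of growth arrest: the transcription factor Trp53, its ubiquitin ligase Mdm2, the cyclin-dependent kinase inhibitors Cdkn1a, Cdkn1b, Cdkn2a and Cdkn2b, the p53 target genes Ccng1 and Gdf15, and the nuclear lamina gene Lmnb1. They were chosen by symbol, and each matched 1 of the 37991 gene identifiers in the count tables. Tissue was taken from the ceca of 3 HBUS mice after 60 weeks and its RNA was sequenced, with 1 serrated polyp and 1 piece of surrounding normal distal cecum from each of the mice 1119, 1192 and 1199. HBUS mice are known as transgenic for HB-EGF, a ligand of the EGF receptor, and for US28, a cytomegalovirus chemokine receptor, both expressed by gut epithelium, so surrounding tissue carries the same transgenes as the polyps. The labels used here do not name the promoters of the transgenes. Polyp and surrounding tissue of 1 mouse form a pair.

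The p53 protein is held at a low level by Mdm2, which marks it for degradation, and is mainly controlled through its stability and not through its transcript. When DNA is damaged or an oncogene is active, p53 switches on target genes, among them Cdkn1a, Ccng1, Gdf15 and Mdm2 itself. Cdkn1a encodes p21 and Cdkn1b encodes p27, which bind and hold cyclin-dependent kinases. Cdkn2a encodes p16 and, from another reading frame, p19Arf, an inhibitor of Mdm2, and Cdkn2b, its neighbour in the genome, encodes p15. Transcripts of these inhibitors are raised in many senescent cells, whereas Lmnb1, which encodes lamin B1, is often lost in them.

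Total counts ran from 6632645 to 13350119 per library, of which the mitochondrial rRNA genes took 46.3% to 75.3%. Levels are in CPM (counts relative to library size, corrected for library composition), and fold changes are polyp over surrounding tissue. Of the 9 genes, 7 passed the filter on low counts and were tested, and Cdkn2a and Gdf15 did not pass it. None of the 7 passed edgeR's quasi-likelihood test, fitted in pairs by mouse, at a Benjamini-Hochberg adjusted p under 0.05, against 2.76% of all 10960 genes tested. DESeq2 and limma-voom also called 0 of the 7. At an unadjusted p under 0.05 edgeR counted 1 of the 7, DESeq2 1 and limma-voom 3. Over all 10960 genes tested the counts at that level were 1596, 1417 and 1962 in the same order of tools. These are the background for the counts at an unadjusted p under 0.05 in the lists below. The groups did not overlap for 2 of the 7 (Cdkn2b and Ccng1), against 18.4% of all tested genes. For 3 of the 7 (Cdkn2b, Ccng1 and Lmnb1) the 3 mice had the same direction, against 38.2% of all tested genes. The median log2 fold change of the 7 was 0.04, and that of all tested genes was -0.02. The 95% intervals given below belong to single genes and are not adjusted for the number of genes.

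**Figure D1:**
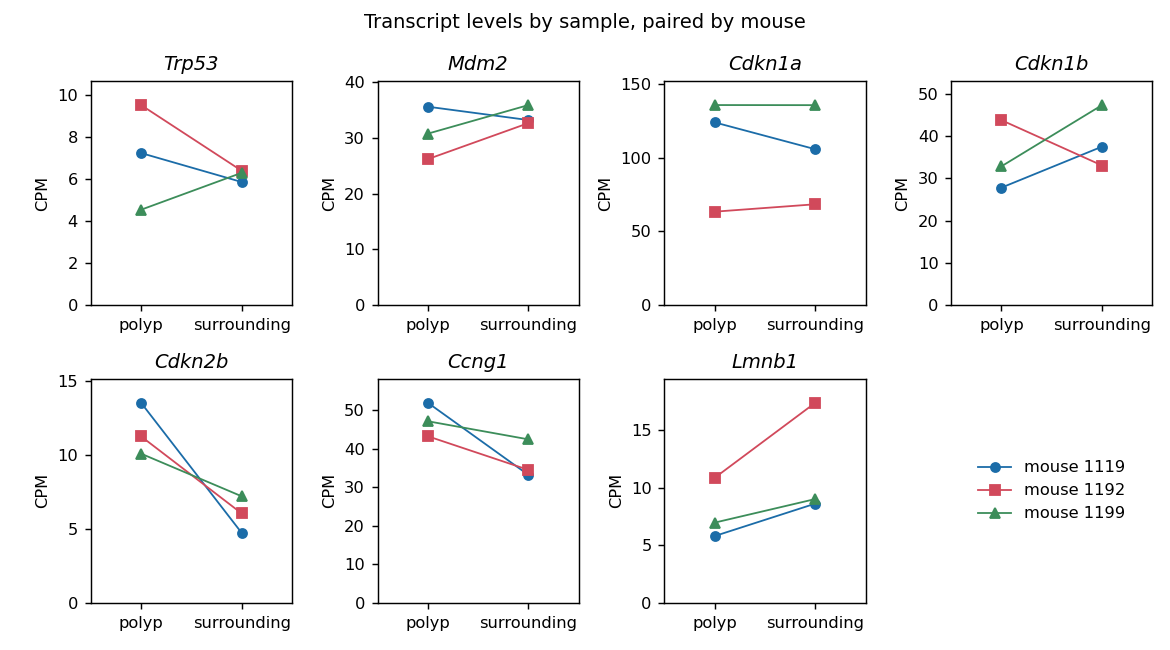
Level of each tested gene in CPM (vertical axis, from 0) in polyp and surrounding tissue, with a line for each mouse. All 3 lines of Cdkn2b and Ccng1 run higher in the polyp and all 3 of Lmnb1 run lower, while the lines of Trp53, Mdm2, Cdkn1a and Cdkn1b differ in direction between mice.

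Trp53 (ENSMUSG00000059552) was measured at 7.25, 9.54 and 4.55 CPM in the polyps of mice 1119, 1192 and 1199, against 5.87, 6.41 and 6.31 CPM in their surrounding tissue. The polyps of mice 1119 and 1192 were above their surrounding tissue and the polyp of mouse 1199 was below it, so the groups overlapped. These levels rest on 32 to 116 counts per polyp library and 28 to 90 per surrounding library. The means were 7.12 ± 2.50 CPM in polyps and 6.20 ± 0.29 CPM in surrounding tissue (SD, n = 3 each). The log2 fold change was 0.17 ± 0.37 (standard error, adjusted p = 0.883), and its 95% interval ran from a fold of 0.626 to 2.01. It was -0.09 without mouse 1192. The processed pseudogene Trp53-ps, a copy of the Trp53 transcript, had 0 counts in all 6 libraries, and how reads shared by the copies were counted is not stated in the labels.

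Mdm2 (ENSMUSG00000020184) had 35.5, 26.2 and 30.7 CPM in the polyps of mice 1119, 1192 and 1199, against 33.2, 32.6 and 35.8 CPM in surrounding tissue. It was higher in the polyp of mouse 1119 and lower in the other polyps, and the groups overlapped. The means were 30.8 ± 4.69 CPM in polyps and 33.9 ± 1.73 CPM in surrounding tissue (SD, n = 3 each). Its log2 fold change was -0.15 ± 0.18 (adjusted p = 0.774), with a 95% interval from a fold of 0.680 to 1.20.

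Cdkn1a (ENSMUSG00000023067), the p21 gene, had the highest level per length of the 9 in both tissues. It was measured at 124, 63.3 and 136 CPM in the polyps of mice 1119, 1192 and 1199, against 106, 68.4 and 135 CPM in surrounding tissue. Both samples of mouse 1192 were below all samples of the other mice, and both tissues put the mice in the same order. The difference between mice was thus wider than that between the tissues of any 1 mouse: the polyp level was 1.17, 0.927 and 1.00 times the surrounding level in mice 1119, 1192 and 1199. The means were 108 ± 38.7 CPM in polyps and 103 ± 33.6 CPM in surrounding tissue (SD, n = 3 each). The log2 fold change was 0.04 ± 0.14 (adjusted p = 0.928). Its 95% interval ran from a fold of 0.821 to 1.29, the narrowest of the 7 on the log2 scale. The sign turned to -0.06 without mouse 1119. On the opposite strand the GENCODE M21 annotation has AC167363.2, which overlaps 273 of the 3553 exon bases of Cdkn1a and is not used here; without a stated strand setting, reads of both cannot be told apart there.

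The sequence upstream of Cdkn1a is shown because p53 binds DNA as pairs of half-sites whose centre is often CATG. RefSeq (GRCm38.p6) lists 2 starts of Cdkn1a, 2790 bases apart, and the 250 bases before the upstream one lie at chr17:29090729-29090978 on the plus strand. CATG is in capitals:

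Cdkn1a: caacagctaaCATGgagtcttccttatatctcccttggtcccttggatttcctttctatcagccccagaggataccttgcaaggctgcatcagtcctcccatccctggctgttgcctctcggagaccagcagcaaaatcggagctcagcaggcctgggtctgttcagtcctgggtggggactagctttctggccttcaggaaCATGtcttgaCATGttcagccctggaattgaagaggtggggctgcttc

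These bases hold CATG followed by any 6 bases and a further CATG once, a motif that reads the same on both strands, starting 48 bases before the listed start. Of 11 promoter windows of 8 of the 9 genes, each of 250 bases before and 50 after a start, 1 held this motif, against 0.712% of all 32851 windows. Among the other p53 target genes listed for comparison, 0 of 41 windows held it. A match of letters is not a measured binding site, and p53 sites that lie outside these windows or differ from these letters are not covered.

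Cdkn1b (ENSMUSG00000003031), the p27 gene, had 27.8, 43.8 and 32.9 CPM in the polyps of mice 1119, 1192 and 1199, against 37.5, 33.04 and 47.3 CPM in surrounding tissue. The polyp was lower in mice 1119 and 1199 and higher in mouse 1192, and the groups overlapped. The means were 34.8 ± 8.15 CPM in polyps and 39.3 ± 7.31 CPM in surrounding tissue (SD, n = 3 each). A log2 fold change of -0.18 ± 0.22 was fitted (adjusted p = 0.775), with a 95% interval from a fold of 0.628 to 1.25. Without mouse 1192 it was -0.52 (adjusted p = 0.283).

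Cdkn2b (ENSMUSG00000073802), the p15 gene, had the largest difference among the 7 and the smallest p. It had 13.5, 11.3 and 10.1 CPM in the polyps of mice 1119, 1192 and 1199, against 4.74, 6.05 and 7.21 CPM in surrounding tissue. Every polyp was above every surrounding sample, as for 9.84% of all tested genes. The polyp level was 2.86 times the surrounding level in mouse 1119, 1.86 times in mouse 1192 and 1.40 times in mouse 1199. The counts behind these levels were 112, 137 and 71 in polyps and 50, 85 and 32 in surrounding tissue. The means were 11.6 ± 1.75 CPM in polyps and 6.0 ± 1.24 CPM in surrounding tissue (SD, n = 3 each). The log2 fold change of 0.97 ± 0.34 did not pass the adjusted threshold (adjusted p = 0.209), although its own 95% interval, from a fold of 1.16 to 3.34, lay above 1. Across the 12 alternatives the log2 fold change ran from 0.70 (without mouse 1119) to 1.18 (without mouse 1199), with adjusted p from 0.121 to 0.639. The samples are whole tissue, so more RNA per cell and more cells that carry the transcript cannot be told apart.

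The 250 bases before the RefSeq start of Cdkn2b lie at chr4:89311033-89311282 on the minus strand (GRCm38.p6), and are shown because Cdkn2b was the gene with the largest difference. CATG is in capitals:

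Cdkn2b: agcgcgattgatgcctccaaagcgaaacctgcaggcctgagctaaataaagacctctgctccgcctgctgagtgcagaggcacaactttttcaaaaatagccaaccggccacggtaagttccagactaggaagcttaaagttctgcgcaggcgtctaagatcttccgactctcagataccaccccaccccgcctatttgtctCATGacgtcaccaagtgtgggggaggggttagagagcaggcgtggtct

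They hold CATG once, as 53.9% of all windows do at least once in these 250 bases, and not the paired motif found upstream of Cdkn1a.

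Cdkn2a (ENSMUSG00000044303), the gene of p16 and p19Arf, had 0 counts in all 6 libraries. A count of 0 allows levels of up to 0.247 to 0.427 CPM in polyps and 0.214 to 0.676 CPM in surrounding tissue (3 counts per library, counting error only). In the same libraries its neighbour Cdkn2b had 32 to 137 counts. In all, 16621 of the 37991 identifiers had 0 counts in every library. No other gene of the GENCODE M21 annotation overlaps the exons of Cdkn2a, and the labels do not name the annotation the authors counted with. The transcripts of p16 and p19Arf share an exon and would be counted as 1 gene.

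Ccng1 (ENSMUSG00000020326), which encodes cyclin G1, a target of p53 that takes part in controlling Mdm2, had 51.9, 43.2 and 47.1 CPM in the polyps of mice 1119, 1192 and 1199, against 33.2, 34.5 and 42.4 CPM in surrounding tissue. The lowest polyp was just above the highest surrounding sample. The polyp level was 1.56, 1.25 and 1.11 times the surrounding level in mice 1119, 1192 and 1199. The means were 47.4 ± 4.35 CPM in polyps and 36.7 ± 4.99 CPM in surrounding tissue (SD, n = 3 each). Its log2 fold change was 0.38 ± 0.17 (adjusted p = 0.371), with a 95% interval from a fold of 0.990 to 1.70.

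Gdf15 (ENSMUSG00000038508), which encodes a stress-induced secreted factor of the TGF-beta family, was detected in 1 polyp and 1 surrounding library. Polyps had 0, 0 and 1 counts in mice 1119, 1192 and 1199, against 0, 10 and 0 counts in surrounding tissue. The 10 counts in the surrounding tissue of mouse 1192 correspond to 0.712 CPM. At this depth no difference could be measured, and no fold is given.

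Lmnb1 (ENSMUSG00000024590) had 5.80, 10.9 and 6.97 CPM in the polyps of mice 1119, 1192 and 1199, against 8.62, 17.4 and 9.02 CPM in surrounding tissue. It was lower in the polyp of each mouse, at 0.673, 0.625 and 0.773 times the surrounding level, while the groups overlapped because both samples of mouse 1192 were high. The means were 7.88 ± 2.65 CPM in polyps and 11.7 ± 4.94 CPM in surrounding tissue (SD, n = 3 each). The log2 fold change was -0.55 ± 0.29 (adjusted p = 0.459), with a 95% interval from a fold of 0.432 to 1.08. Across the 12 alternatives it stayed between -0.64 and -0.51 without passing.

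**Figure D2:**
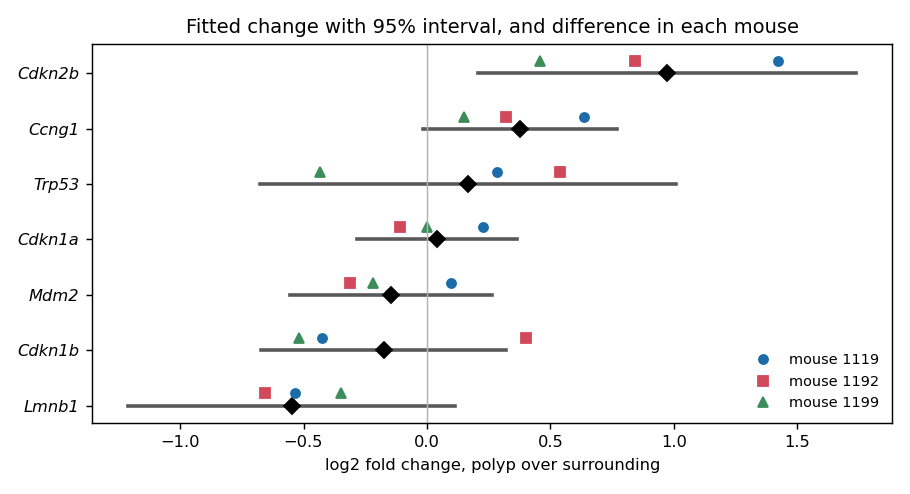
Log2 fold change of polyp over surrounding tissue (horizontal axis) for the 7 tested genes, with black diamonds for the fitted values, grey bars for their 95% intervals and coloured symbols for the difference in each mouse (0.5 CPM added before the log). The interval of Cdkn2b alone among these 7 lies off 0, and that of Cdkn1a is the narrowest.

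To set the genes side by side, CPM were divided by the exon length of each gene. Per kb of exon, Cdkn1a averaged 30.3 ± 10.9 CPM in polyps and 29.0 ± 9.46 CPM in surrounding tissue (SD, n = 3 each). Ccng1 came next with 13.5 ± 1.24 CPM per kb in polyps and 10.4 ± 1.42 in surrounding tissue, where its samples overlapped those of Cdkn1b. In polyps Cdkn2b followed at 8.37 ± 1.26 CPM per kb, before Cdkn1b (7.65 ± 1.79) and Mdm2 (6.06 ± 0.92), and the samples of Cdkn2b overlapped those of Cdkn1b, as those of Cdkn1b overlapped those of Mdm2. In surrounding tissue Cdkn2b was at 4.32 ± 0.89 CPM per kb, below Cdkn1b (8.63 ± 1.61) and Mdm2 (6.66 ± 0.34), and all its samples there were below all samples of Mdm2 and overlapped those of Lmnb1. Lmnb1 and Trp53 had the lowest levels of the 7, with 2.66 ± 0.89 and 1.76 ± 0.62 CPM per kb in polyps and 3.94 ± 1.67 and 1.53 ± 0.07 in surrounding tissue. Samples of Lmnb1 and Trp53 overlapped in polyps and not in surrounding tissue.

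**Figure D3:**
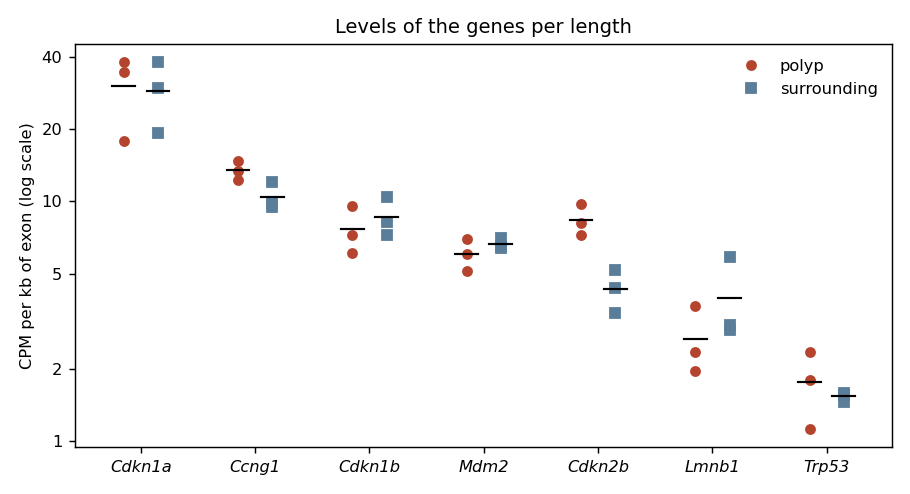
Level per length of the 7 tested genes in CPM per kb of exon (vertical log axis), with a symbol for each sample, circles for polyps and squares for surrounding tissue, and a line at each mean. Cdkn1a stands above the other genes in both tissues, and Cdkn2b is the gene whose polyp and surrounding samples lie farthest apart.

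Among 5716 other abundant protein-coding genes, those whose centred log2 CPM followed Cdkn2b most closely over the 6 samples were Stim2, Manea and Abca1. Their root-mean-square differences from Cdkn2b were 0.15, 0.15 and 0.16 on the log2 scale, where Cdkn2b itself had an SD of 0.54. Stim2, which encodes a calcium sensor of the endoplasmic reticulum, averaged 29.2 ± 3.12 CPM in polyps and 17.4 ± 4.05 CPM in surrounding tissue (adjusted p = 0.150). Manea, an endomannosidase gene, and Abca1, a cholesterol exporter gene, had log2 fold changes of 0.82 and 0.86 (adjusted p = 0.287 and 0.258).

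Of 38 other established p53 target genes, 33 were tested, 2 rose and 0 fell, beside 1.72% of all tested genes that rose and 1.04% that fell. Of the 33 log2 fold changes 19 were positive and 14 negative, with a median of 0.16. At an unadjusted p under 0.05 edgeR counted 8 of the 33, against 1596 of all 10960 genes tested. DESeq2 counted 6 of the 33 at that level and limma-voom 9, against 1417 and 1962 of all 10960. Pmaip1, which encodes the pro-apoptotic protein Noxa, rose 2.13-fold (log2 fold change 1.09 ± 0.19, adjusted p = 0.0221). It had 42.1, 30.2 and 40.7 CPM in the polyps of mice 1119, 1192 and 1199, against 18.8, 13.5 and 21.2 CPM in surrounding tissue, so the groups did not overlap. Its adjusted p was 0.130 without mouse 1119, 0.129 without mouse 1199 and 0.0726 with the pairing ignored. Sfn, the 14-3-3 sigma gene, had 58.2, 62.7 and 108.7 CPM in polyps, against 28.2, 33.3 and 78.7 CPM in surrounding tissue, in the same order of mice. It was higher in each polyp than in its own surrounding tissue, with overlap between the groups, and passed at adjusted p = 0.0443 in the paired fit and at 0.571 with the pairing ignored. Without mouse 1119, 1192 or 1199 the adjusted p of Sfn was 0.196, 0.1297 and 0.135, and it was 0.0606 with upper-quartile factors and 0.0594 without robust spread estimates. The apoptosis gene Bax (log2 fold change -0.41), the RNA-binding protein gene Zmat3 (-0.09) and the ribonucleotide reductase gene Rrm2b (0.16), which are common readouts of p53 and were picked for that after their values were seen, did not pass (adjusted p = 0.694, 0.912 and 0.928). Further known targets had both signs, with Bbc3 at 2.35, Rps27l at 0.46, Btg2 at 0.31, Gadd45a at -0.33 and Fas at -1.05. Their adjusted p ran from 0.395 to 0.786. Bbc3 had at most 1.07 CPM in surrounding tissue. Ddit4 (0.86), Trp53i13 (2.49), Tnfrsf10b (0.74), Perp (0.32) and Apaf1 (0.51) were higher in polyps at an unadjusted p under 0.05 in edgeR. Trp53inp1 (-0.40) was lower at that level. None of these passed the adjusted threshold. The value of Trp53i13 had a standard error of 0.83. It rests on 0.379, 0.641 and 0.676 CPM in the surrounding tissue of mice 1119, 1192 and 1199, where 0.676 CPM is 3 counts in the last.

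Of 20 genes that act on p53, 18 were tested and 0 passed with edgeR (1 at an unadjusted p under 0.05), 0 with DESeq2 and 1 with limma-voom. Their median log2 fold change was -0.06. The smallest p values belonged to Rpl11, a ribosomal protein gene whose product binds Mdm2 (log2 fold change -0.83 ± 0.31, adjusted p = 0.262), and to the kinase gene Hipk2 (-0.48 ± 0.26, adjusted p = 0.458). Without mouse 1192 the values were -0.46 for Rpl11 and -0.11 for Hipk2. With limma-voom the adjusted p was 0.0530 for Rpl11 and 0.285 for Hipk2. The 1 call of limma-voom, lower in polyps, was thus a different gene of the list. Rpl11 was at 16.3 CPM in the polyp and 45.1 CPM in the surrounding tissue of mouse 1192, and at 4.71 to 7.21 CPM in the other 4 libraries. Trp73, a relative of Trp53, had 0 counts in all 6 libraries.

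For the further CDK inhibitors, Cdkn1c (p57) was tested and averaged 7.77 ± 3.62 CPM in polyps and 7.20 ± 5.56 CPM in surrounding tissue (SD, n = 3 each, adjusted p = 0.694). Its log2 fold change of 0.52 ± 0.47 turned to -0.10 without mouse 1192. Of 19 G1 cyclins, kinases and RB family genes, on which these inhibitors act, 17 were tested and 0 passed with edgeR, DESeq2 or limma-voom (2, 0 and 2 at an unadjusted p under 0.05). Cdk6, a kinase that p15 binds, averaged 7.68 ± 1.47 CPM in polyps and 3.68 ± 0.71 CPM in surrounding tissue (SD, n = 3 each), at 1.04 ± 0.38 on the log2 scale (adjusted p = 0.238). For the transcription factor gene E2f2 the value was 0.62 ± 0.24 (adjusted p = 0.287). Of 8 genes of p27 turnover and of the FOXO factors that activate Cdkn1b, 7 were tested and 0 passed with any of the 3 tools, also at an unadjusted p under 0.05, with Foxo3 at -0.29 ± 0.14 and Foxo4 at -0.67 ± 0.42 on the log2 scale (-0.33 without mouse 1192). The same held for 10 tested of 11 genes of the Polycomb machinery that represses the Cdkn2a and Cdkn2b locus and of demethylases that act there, where Rnf2 was at 0.43 ± 0.24 and Suz12 at 0.25 ± 0.16.

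All 21 proliferation genes were tested and 0 passed with edgeR, DESeq2 or limma-voom (3, 0 and 3 at an unadjusted p under 0.05). Their log2 fold changes were negative for 16 and positive for 5, with a median of -0.46. Over all 10960 tested genes 5650 were negative and 5310 positive. The chromatin protein gene Hmgb2 was at -0.80 ± 0.31 (adjusted p = 0.267) and the topoisomerase gene Top2a at -0.46 ± 0.19 (adjusted p = 0.309). Among 11 nuclear lamina genes, Lmnb1 included, 1 rose and 0 fell, beside 1.72% of all tested genes that rose and 1.04% that fell. The lamina gene that rose was Lmna, the gene of lamins A and C, with 69.03, 91.2 and 122 CPM in the polyps of mice 1119, 1192 and 1199, against 43.2, 44.6 and 80.9 CPM in surrounding tissue. Lmna was higher in each polyp than in its own surrounding tissue (1.70-fold, log2 fold change 0.77 ± 0.16, adjusted p = 0.0392), the opposite sign to Lmnb1. The difference between Lmna and Lmnb1 was not tested. Lmna lost its call without mouse 1119, 1192 or 1199 (adjusted p = 0.116, 0.146 and 0.187), with the pairing ignored (0.299), and narrowly with upper-quartile factors (0.0505) or without robust spread estimates (0.0550).

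Genes of the senescence-associated secretory phenotype, the cytokines, proteases and binding proteins that senescent cells release, are also made by fibroblasts and inflamed tissue. Of 32 listed, 21 were tested, 9 rose and 0 fell, beside 1.72% of all tested genes that rose and 1.04% that fell. The 21 tested genes each had a positive log2 fold change, as 5310 of all 10960 tested genes did, and the median was 2.22. The 11 that were not tested had low counts, and a gene that is low in surrounding tissue enters the test through its polyp counts. Several genes of this list were already known to differ in these samples when it was written, so its count is not independent evidence of a direction. Over all 32 genes, the summed level was 316 to 719 CPM in polyps and 82.6 to 216 CPM in surrounding tissue. Igfbp5, an insulin-like growth factor binding protein gene, had 165.7, 34.5 and 104.7 CPM in the polyps of mice 1119, 1192 and 1199, against 28.04, 10.8 and 47.1 CPM in surrounding tissue (log2 fold change 1.81 ± 0.26, adjusted p = 0.0153). Tnfrsf11b and the urokinase gene Plau rose as well, by 3.07 ± 0.50 and 1.82 ± 0.32 on the log2 scale (adjusted p = 0.0192 and 0.0234). Calls in this list numbered 1, 9 and 5 without mouse 1119, 1192 or 1199, 2 with the pairing ignored, 15 with DESeq2 and 16 with no filter on low counts. Without mouse 1119 the adjusted p was 0.0923 for Tnfrsf11b and 0.144 for Plau, and without mouse 1199 it was 0.197 for Plau. With the pairing ignored it was 0.421 for Igfbp5, 0.0647 for Tnfrsf11b and 0.151 for Plau.

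Of 12 genes of the ATF4 and CHOP stress response, which also drives Gdf15, 9 were tested and 0 passed with edgeR (3 at an unadjusted p under 0.05), while DESeq2 and limma-voom called 1 each. Atf3 was at 1.00 ± 0.22 (adjusted p = 0.0559) and Ddit4, which is also a p53 target, at 0.86 ± 0.26 on the log2 scale (adjusted p = 0.156). Atf3 passed with DESeq2 (adjusted p = 0.0231), limma-voom (0.0424), a mean of at least 5 CPM (0.0247) and no filter on low counts (0.000956), and in the other alternatives its adjusted p ran up to 0.538. Ddit4 passed without mouse 1192 (log2 fold change 1.19, adjusted p = 0.0257) and with no filter on low counts (0.00969), and in the other alternatives its adjusted p ran up to 0.570. In edgeR the calls of this list numbered 2 with no filter, 1 with a mean of at least 5 CPM and 1 without mouse 1192. Atf3 averaged 32.4 ± 12.5 CPM in polyps and 17.8 ± 11.9 CPM in surrounding tissue (SD, n = 3 each).

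**Figure D4:**
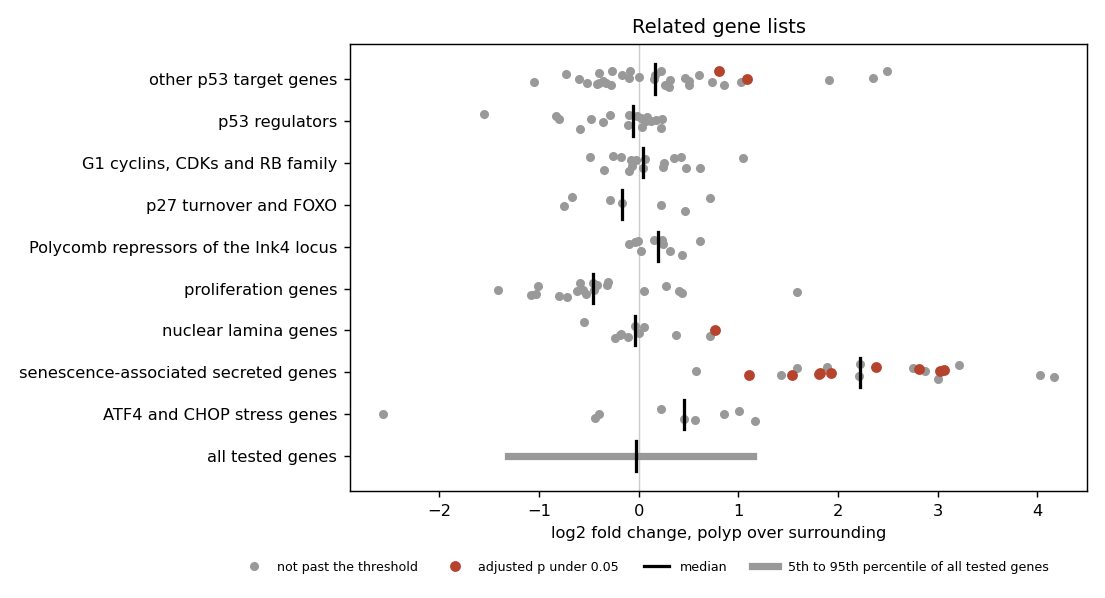
Log2 fold change of polyp over surrounding tissue (horizontal axis) of each tested gene in the related lists, with red points for genes at adjusted p under 0.05, a black line at each median and a grey bar from the 5th to the 95th percentile of all tested genes. The senescence-associated secreted genes lie to the right with a median of 2.22, and the medians of the other lists drawn lie between -0.46 and 0.46. Cdkn1c, the 1 tested gene among the further CDK inhibitors, and the cell type markers are not drawn.

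Cell type markers differed between the tissues beside these genes. The summed level of 10 fibroblast markers was 207 to 535 CPM in polyps and 70.7 to 153 CPM in surrounding tissue, with 4 of 10 tested higher. That of 12 smooth muscle markers was 82.6 to 156 CPM in polyps and 281 to 302 CPM in surrounding tissue, with 2 of 10 tested lower. That of 12 epithelial markers was 5944 to 7957 CPM in polyps and 3575 to 6245 CPM in surrounding tissue, with 3 of 12 tested higher. The fibroblast markers called were Col1a1, Col1a2, Col3a1 and Pdgfra. On the log2 scale Dcn was at 1.13, Pdpn at 0.23, Lum at 0.03, Thy1 at 0.02, Dpt at -0.93 and Fbln1 at -1.56. The epithelial markers called were Krt8, Krt18 and Krt19. Among epithelial markers 10 log2 fold changes were positive and 2 negative. The negative ones, Cdx1 (-0.59) and Cdx2 (-0.29), were lower in the polyp of each mouse. Calls among fibroblast markers numbered 3, 5 and 3 without mouse 1119, 1192 or 1199 and 2 with the pairing ignored. In the same order those among smooth muscle markers numbered 2, 4, 1 and 1, and those among epithelial markers 1, 1, 1 and 0. The summed level of 8 endothelial markers was 16.6 to 47.8 CPM in polyps and 9.26 to 17.9 CPM in surrounding tissue, and that of 8 neutrophil markers 17.3 to 53.6 and 1.07 to 18.03 CPM, with 0 of 6 and 0 of 3 tested called (edgeR, 3 and 0 at an unadjusted p under 0.05). DESeq2 called 0 and 1 of these, and limma-voom 0 and 0. Most of the neutrophil sum in polyps was Ly6g, at 34.3, 16.04 and 24.7 CPM in mice 1119, 1192 and 1199. In surrounding tissue Ly6g had 7.48, 0.142 and 13.7 CPM. Csf3r and S100a9, also tested, were lower in the polyp of mouse 1199 than in its surrounding tissue, as was S100a9 in mouse 1192. The summed level of 10 macrophage markers was 17.8 to 26.7 CPM in polyps and 12.3 to 25.5 CPM in surrounding tissue, and that of 11 lymphocyte markers 18.3 to 27.3 and 26.2 to 40.8 CPM, with 0 called by the 3 tools, also at an unadjusted p under 0.05. None of these markers was at 0 in all 6 libraries. The part of these differences in the levels of Cdkn2b, Ccng1, Lmnb1, Lmna, Pmaip1, Sfn and the secreted genes was not tested.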

How the data were processed

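Raw counts per gene for 6 libraries were deposited, 1 table per sample, holding whole numbers that the authors had not normalized, per the file headers. Tools listed in the submitters' processing notes are HTSeq 0.5.3p9, TopHat2 2.0.7 and Bowtie 0.12.9; for settings, strand, genome build and annotation the labels say nothing. Per the labels' protocols, RNA passed through a MICROBEnrich kit, which removes mammalian RNA, and an rRNA removal kit before library preparation, but it is not certain from the labels that the mouse counts come from RNA treated this way. Names and exon lengths came from GENCODE M21 (32919 of 37991 identifiers named) and promoter sequences from RefSeq (GRCm38.p6).

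The test was run in edgeR 4.0.16 under R 4.3.3, with TMM normalization, filterByExpr with minimum count 10, the robust two-sided quasi-likelihood test and the mouse as a block; p was Benjamini-Hochberg adjusted over 10960 genes, with a threshold of 0.05. Standard errors and 95% intervals come from the test statistic, whose spread borrows from other genes (2 residual and 6.63 prior degrees of freedom). The series' design text calls the samples paired, and titles name the mouse; deviations from the tissue means correlated at 0.0759, 0.141 and 0.179 within mice 1119, 1192 and 1199. Pairs of libraries of a tissue had chi-squares of 19.6 to 68.6 per degree of freedom, beyond sampling noise. TMM factors ran from 0.593 to 1.43. Alternatives, 12 in all, were no block, RLE and upper-quartile factors, dropping genes above 1% of a library, testing without a filter, a mean of at least 5 CPM, no robust spread, DESeq2 1.42.0, limma-voom (limma 3.58.1) and leaving out each mouse. The procedure was tested on simulated counts. Figures were made with Python 3.11.15.

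The members and the lists were chosen with earlier results of these data known. Beside the 9 genes, the text names the called genes of each list (at most 4, smallest p first), or the 2 with the smallest p where none was called, except in the marker lists, and the 3 abundant genes most like the gene with the smallest p. Outside this rule, Bax, Zmat3, Rrm2b, Bbc3, Rps27l, Btg2, Gadd45a, Fas, Trp73, the further p53 targets at an unadjusted p under 0.05 and the cell type markers were named after their values were seen. Of the 252 genes in the lists, 1 was not analysed here, and 1 that the naming rule selects is not reported here.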

Additional observations from a re-analysis of the deposited data

How the results depend on the processing

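None of the 9 genes was called under any of the 12 alternatives, and the 0 calls include the fits with and without the mouse as a block. Mdm2, Cdkn1b, Cdkn2b, Ccng1 and Lmnb1 kept their direction in all 12. With 1 mouse left out, Trp53 ran from -0.087 (without mouse 1192) to 0.43, Cdkn1a from -0.060 (without mouse 1119) to 0.077 (without mouse 1192) and Cdkn1c from -0.10 (without mouse 1192) to 1.00 on the log2 scale; the cause was not tested beyond the samples left out. The 2 calls among the other p53 target genes became 0 without the replicate block, 1 with upper-quartile factors, 1 without robust spread estimates and 0 to 2 with 1 mouse left out, where the 2 calls without mouse 1192 shared 1 gene with those of all mice. Over all genes the 303 calls became 87 without the replicate block, 753 with no filter on low counts, 541 with DESeq2 and 83 to 281 with 1 mouse left out. The block changed the calls of Pmaip1, Sfn and Lmna as given above. Of 48 single genes compared, most of them not called in the main fit, 36 kept their side of the threshold without it. The other 12 all lost their call. Beside Pmaip1, Sfn and Lmna these included Igfbp5, Tnfrsf11b, Plau, Krt8, Krt18, Krt19, Col1a1 and Col3a1. Depth limits Cdkn2a and Gdf15, at 0 to 10 counts per library, and Trp53, at 28 to 116. It also limits Cdkn2b, at 32 to 137, and Lmnb1, at 40 to 244. Fragments carry no molecular identifiers, so the floors cover counting error only.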
